A study of Mus musculus with 2 samples.

Results

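The 10 genes described here encode molecules with which olfactory axons sort themselves and find their targets: the adhesion molecules Kirrel2 and Kirrel3, the ephrins Efna5 and Efna3, the semaphorins Sema7a, Sema3a and Sema3f, and the semaphorin receptors Nrp1, Nrp2 and Plxna1. They were chosen by symbol, as members of known guidance families, with earlier results of these data known. Counts of them set beside all genes are therefore descriptions and not tests. All 10 are among the 31053 genes of the deposited matrix. The cells came from the olfactory epithelium of a male C57BL/6 mouse. One naris (L) was occluded at postnatal day 14. Cells of that side and of the open side were taken at postnatal day 28, with 1 single-cell library per side and no untreated animal. The labels speak of a single mouse, so both sides share its genotype and age, while only L was occluded. Barcodes end in 1 or 2, and since no label says which of these endings is the occluded side, the libraries are called library 1 and library 2 and no side is assigned to either. With 1 library per side there is no replicate, no test between sides is possible, and every comparison describes these 2 libraries.

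Each olfactory sensory neuron (OSN) expresses a single odorant receptor, and axons of neurons with the same receptor converge on the same glomeruli of the olfactory bulb. Homophilic Kirrel proteins and the repulsive pair of ephrin-A and EphA are known to sort axons locally near their glomerulus, and their levels are known to depend on neuronal activity. Class 3 semaphorins, such as Sema3a and Sema3f, are secreted and act through neuropilins (Nrp1 and Nrp2), which signal together with plexin-A receptors such as Plxna1. Nrp1 and Sema3a are known for ordering axons from front to back, Nrp2 and Sema3f for ordering them from dorsal to ventral, and Sema7a, a membrane-anchored semaphorin, for acting at the synapse in the bulb.

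After filtering, 3032 cells of library 1 and 5266 of library 2 remained, with medians of 5528 and 5139.5 UMIs (unique molecule counts) per cell. Clusters were made without the 10 genes, without related guidance genes and without activity genes, so that these could not set the borders of the classes. Levels are UMIs of a gene scaled to 1000000 UMIs of the class and library (CPM), with exact 95% Poisson intervals. Mature OSN-like cells numbered 455 and 471, with Omp, the olfactory marker protein, at 5285 and 5863 CPM. Immature OSN-like cells numbered 147 and 365, with Gap43, a growth cone protein, at 1585 and 1759 CPM. Cluster 5, with 122 and 287 cells, held Omp at 2475 and 3085 CPM and Gap43 at 625 and 641 CPM and was left unnamed between these stages. Earlier stages were GBC-like cells (109 and 248; globose basal cells divide to give neuronal precursors), the unnamed cluster 20 (38 and 100), intermediate neuronal precursor (INP)-like cells (51 and 142) and the unnamed cluster 12 (60 and 168), whose leading genes held markers of both INPs and immature OSNs. Sustentacular-like cells, the non-neuronal supporting cells (725 and 963), are given beside the neurons as a non-neuronal class, since free RNA can leave UMIs in any cell. The libraries shared 12 barcode sequences.

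The genes had their highest levels at different stages. Sema3a was highest among neuronal stages in INP-like cells, Nrp2 in cluster 12, Nrp1 in immature OSN-like cells, Kirrel2 in cluster 5, and Kirrel3, Efna5, Efna3, Sema7a and Plxna1 in mature OSN-like cells of the pooled libraries. Between immature and mature OSN-like cells, pooled over libraries, 5 of the 10 genes were 2-fold or more higher in mature cells and 2 were 2-fold or more lower. Over all 9873 genes that reached 10 CPM in either class, 12.9% were 2-fold or more higher and 15.1% lower. The median log2 ratio was 1.31 for the 10 genes and -0.13 for all genes. The higher genes were Kirrel3, Sema7a, Efna5, Efna3 and Kirrel2 and the lower ones Nrp1 and Sema3a; each passed in both libraries alone except Kirrel2, which passed in library 2 alone. Step by step, 3 of 9 measured members were 2-fold or more higher in cluster 12 than in INP-like cells (Nrp1, Efna5 and Nrp2) and 1 lower (Sema3a), against 11.7% and 7.9% of all genes. These 4 genes passed in each library alone. In immature cells over cluster 12, 1 of 10 was higher (Plxna1) and 2 lower (Efna5 and Sema7a), against 14.7% and 5.57%. Plxna1 and Efna5 passed in each library alone, but the counts differed: 2 higher and 4 lower in library 1 (23.1% and 8.54% of all genes) and 2 higher and 1 lower in library 2 (14.5% and 5.63%), with median log2 ratios of the members of -0.48 and 0.35. In cluster 5 over immature cells, 4 of 10 were higher (Kirrel2, Sema7a, Kirrel3 and Efna3) and 1 lower (Nrp1), against 9.46% and 8.36%, and all 5 passed in each library alone. In mature cells over cluster 5, 2 were higher (Efna5 and Efna3) and 2 lower (Kirrel2 and Sema3a), against 3.66% and 4.91%. Pooled values of this step mix libraries with unequal shares of the 2 classes, and of the 4 genes only Efna5 passed in each library alone. Library 1 had 2 higher (Efna5 and Kirrel3) and 3 lower (Kirrel2, Sema3a and Nrp1), against 5.68% and 6.44%, and library 2 had 1 higher (Efna5) and 1 lower (Nrp1), against 3.54% and 4.84%. The plot of levels by stage shows both libraries side by side.

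**Figure D1:**
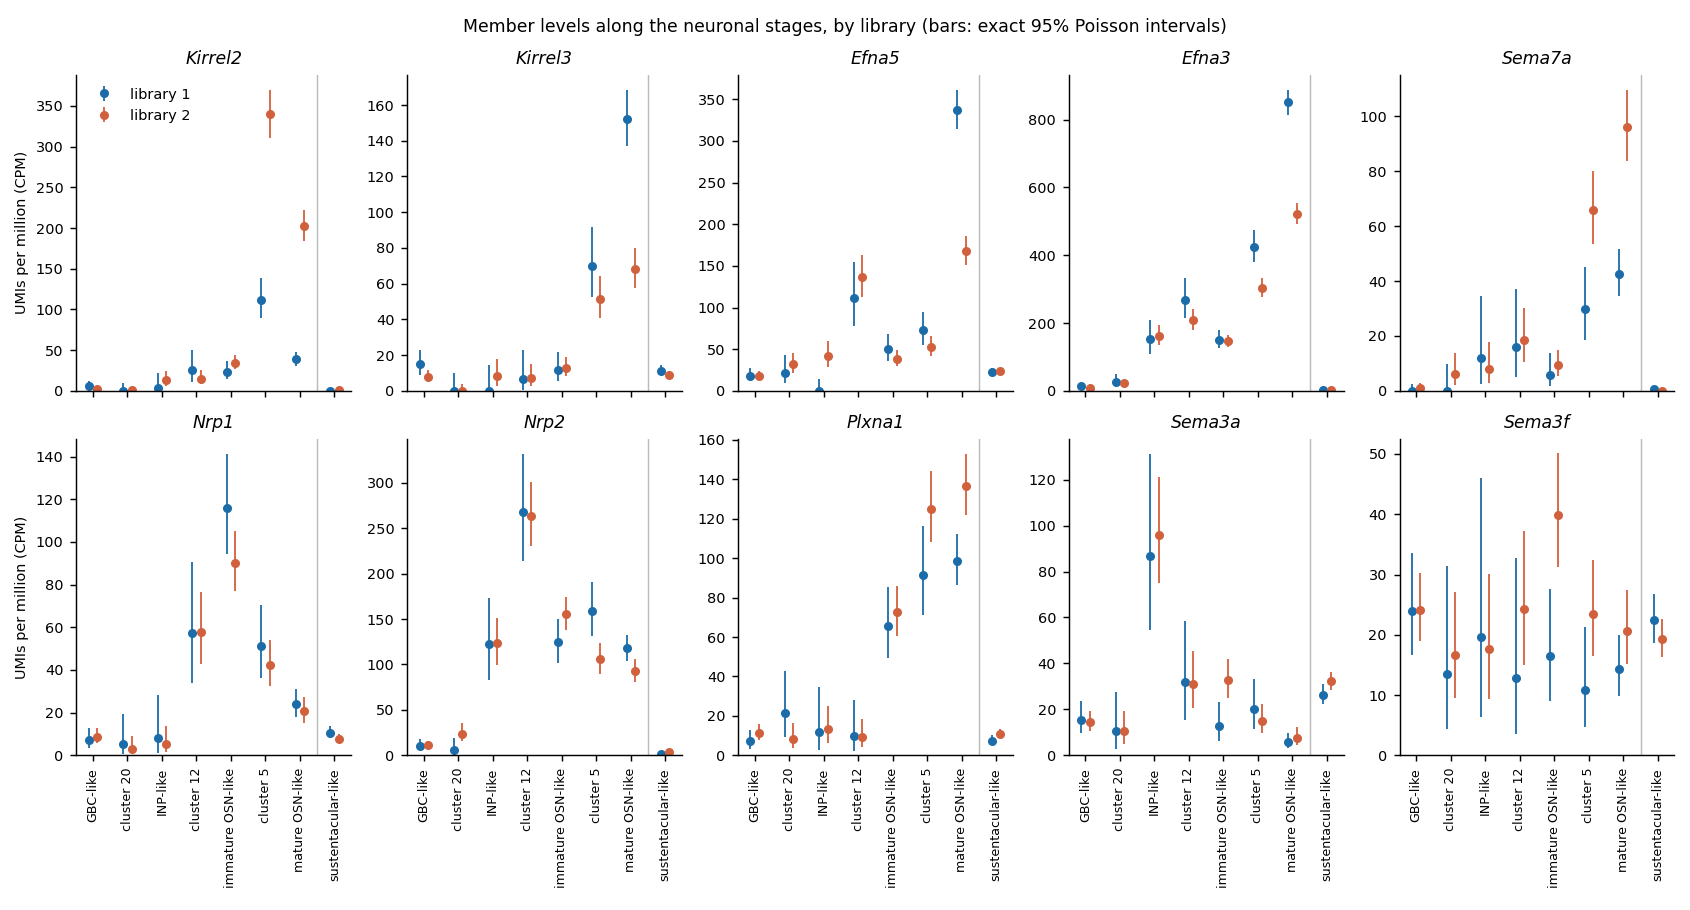
Levels of the 10 genes (CPM, vertical axis from 0, scaled per gene) in 7 neuronal stages and in sustentacular-like cells (horizontal axis), with library 1 in blue and library 2 in orange; points are the summed level of a class and bars exact 95% Poisson intervals. Kirrel2 and Sema7a stand higher in library 2 in cluster 5 and in mature cells, while Kirrel3, Efna5 and Efna3 stand higher in library 1 in mature cells.

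Kirrel2, a homophilic adhesion molecule (ENSMUSG00000036915, chromosome 7, 30447534 to 30457690, minus strand of mm10), was low until the neurons began to mature. In INP-like cells it was at 3.94 CPM in library 1 (1 UMI) and 13.5 CPM in library 2, where 80.0% of the UMIs came from 3 cells. It stood at 23.4 (14.3 to 36.2) and 34.9 CPM (26.8 to 44.6) in immature OSN-like cells, at 112 (89.2 to 139) and 340 CPM (311 to 370.0) in cluster 5, and at 38.7 (31.2 to 47.4) and 202 CPM (184 to 222) in mature OSN-like cells. Its peak thus lay before the mature stage in both libraries, and the intervals of the libraries did not overlap in cluster 5 or in mature cells. After each cell was thinned to 2000 UMIs, 5.56% of mature cells of library 1 and 27.5% of library 2 held a Kirrel2 UMI, against 0 and 0.217% of sustentacular-like cells.

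Kirrel3, the related homophilic molecule (ENSMUSG00000032036, chromosome 9, 34485894 to 35036716), rose at the same step but peaked later among neuronal stages, in mature cells. Its level was 11.7 (5.62 to 21.5) and 12.7 CPM (8.07 to 19.1) in immature OSN-like cells, no higher than the 11.3 and 8.85 CPM of sustentacular-like cells, within the intervals. It was 70.2 (52.4 to 92.0) and 51.5 CPM (40.8 to 64.2) in cluster 5 and 152 (137 to 169) and 68.1 CPM (57.7 to 79.9) in mature cells. In mature cells the order of the libraries was opposite to that of Kirrel2, and the Kirrel3 intervals did not overlap. The order was also opposite in cluster 5, but there the Kirrel3 intervals overlapped. In immature cells both genes had the same order, with overlapping intervals. Outside the neurons, Kirrel3 was at 99.5 CPM (77.3 to 126) in the 85 Trpm5 microvillous-like cells, a chemosensory cell type of the epithelium.

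The ephrin genes had an early and a late phase. Efna5 (ENSMUSG00000048915, chromosome 17, 62604184 to 62881317) was at 112 (77.8 to 155) and 137 CPM (113 to 164) in cluster 12, at 50.4 and 38.7 CPM in immature OSN-like cells, and at 72.8 and 52.8 CPM in cluster 5. It reached 337 (315 to 362) and 168 CPM (152 to 186) in mature cells. Pooled, it fell 3.01-fold from cluster 12 to immature cells and was 4.25-fold higher in mature cells than in cluster 5. Efna3 (ENSMUSG00000028039, chromosome 3, 89313899 to 89322965) went from 154 and 162 CPM in INP-like cells through 268 and 208 CPM in cluster 12 to 150.0 and 146 CPM in immature cells. It was then at 425 and 304 CPM in cluster 5 and at 851 (814 to 889) and 522 CPM (492 to 553) in mature cells. Both ephrins were therefore lowest after cluster 12, in immature cells, among the 4 stages from cluster 12 on, and higher in mature cells of library 1 than of library 2.

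Sema7a (ENSMUSG00000038264, chromosome 9, 57940112 to 57962865) was at 5.86 and 9.40 CPM in immature OSN-like cells, from 5 and 17 UMIs. It was at 29.7 (18.6 to 44.9) and 65.8 CPM (53.6 to 80.0) in cluster 5 and at 42.4 (34.6 to 51.6) and 95.9 CPM (83.5 to 110) in mature cells. Sustentacular-like cells held it at 0.547 and 0.123 CPM. Its highest level was in the 64 endothelial-like cells, at 141 CPM (102 to 189) with both libraries pooled.

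The neuropilins peaked earlier. Nrp1 (ENSMUSG00000025810, chromosome 8, 128358604 to 128503363), the receptor of Sema3a, went from 7.88 and 5.42 CPM in INP-like cells to 57.4 and 57.9 CPM in cluster 12 and 116 (94.3 to 141) and 90.2 CPM (76.9 to 105) in immature cells. It was back at 24.0 (18.1 to 31.0) and 20.6 CPM (15.1 to 27.5) in mature cells. Nrp2 (ENSMUSG00000025969, chromosome 1, 62703285 to 62818695), the receptor of Sema3f, was at 122 and 123 CPM in INP-like cells and peaked at 268 (214 to 332) and 264 CPM (231 to 301) in cluster 12. It kept 124 and 155 CPM in immature and 118 and 92.4 CPM in mature cells. The peak of Nrp2 thus came a stage before that of Nrp1. Mature over immature, the pooled log2 ratio of Nrp1 was -2.09, and -1.12 with no cell filter, -1.44 at Leiden resolution 1.5 and -1.43 with stages taken from Omp and Gap43 UMIs. That of Nrp2 was -0.46, and 0.19 with stages taken from Omp and Gap43 UMIs, so Nrp2 has no settled direction at this step. Among other cells, the 64 endothelial-like cells held Nrp1 at 234 CPM (183 to 294) and Nrp2 at 256 CPM (203 to 319).

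Plxna1 (ENSMUSG00000030084, chromosome 6, 89316314 to 89362620), the signalling partner of the neuropilins, was at 9.57 and 9.26 CPM in cluster 12 and at 65.6 (49.6 to 85.2) and 72.5 CPM (60.6 to 86.0) in immature cells. Pooled, this step was 6.89-fold. It reached 98.8 (86.5 to 112) and 137 CPM (122 to 153) in mature cells. Nrp2 was therefore already at its peak in cluster 12, where the level of Plxna1 overlapped that of sustentacular-like cells, 7.47 and 10.8 CPM.

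The secreted ligands were low in mature neurons. Sema3a (ENSMUSG00000028883, chromosome 5, 13125414 to 13602565) was at 86.7 (54.4 to 131) and 96.1 CPM (75.1 to 121) in INP-like cells and at 31.9 and 31.3 CPM in cluster 12. It was at 5.88 (3.22 to 9.87) and 7.62 CPM (4.44 to 12.2) in mature cells, below the 26.3 and 32.3 CPM of sustentacular-like cells. Its highest level was in the 140 ionocyte microvillous-like cells, at 99.3 CPM (83.4 to 117). Sema3f (ENSMUSG00000034684, chromosome 9, 107681500 to 107710475) was at 14.3 (9.90 to 19.97) and 20.6 CPM (15.1 to 27.5) in mature cells, like sustentacular-like cells at 22.4 and 19.3 CPM. It was highest in endothelial-like cells, at 80.1 CPM (51.8 to 118), and in horizontal basal cell-like cells, the reserve stem cells, at 73.1 CPM (65.8 to 81.0). Mature cells thus held both ligands at low levels.

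The genes were then compared between the libraries within mature OSN-like cells. Of the 9 members that reached 10 CPM in either library, 2 were 2-fold or more higher in library 2 and 2 were 2-fold or more lower, against 2.86% of all 9088 measured genes higher and 2.1% lower. Kirrel2 had a log2 ratio (library 2 over library 1, with 1 CPM added) of 2.36 and Sema7a of 1.16, while Kirrel3 had -1.15 and Efna5 -1.001, which lies at the 2-fold bound. Efna3 at -0.70 and Nrp2 at -0.35 were lower in library 2, and Plxna1 at 0.47 was higher, all with counting intervals that leave out 0. Nrp1 at -0.21 and Sema3f at 0.50 had intervals across 0. S100a5, a calcium-binding protein gene known to follow odour-driven activity, was at 1705 and 14042 CPM in the same cells, and Calb2, the calcium buffer calretinin, at 1554 and 539 CPM.

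The contrast between libraries was already present for 2 of these genes in cluster 5. There Kirrel2 had a ratio of 1.59, Sema7a of 1.12 and Sema3f of 1.05, the last with an interval of -0.05 to 2.16, and no member was 2-fold lower. Among all 9298 genes measured in cluster 5, 4.33% were 2-fold higher and 2.43% lower. Kirrel3, Efna5 and Efna3 had ratios of -0.44, -0.46 and -0.48 there, against -1.15, -1.001 and -0.70 in mature cells, and for each of the 3 the intervals of both ratios overlapped. In immature OSN-like cells Kirrel2 was at 0.55 and Kirrel3 at 0.11, both with intervals across 0. The 2 members past 2-fold at that stage were Sema3a at 1.28, from 11 and 59 UMIs, and Sema3f at 1.23, from 14 and 72 UMIs, against 4.1% of all genes higher and 5.62% lower. Both immature calls depended on how the cells were filtered and grouped: with at least 2500 UMIs per cell, neither passed 2-fold.

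**Figure D2:**
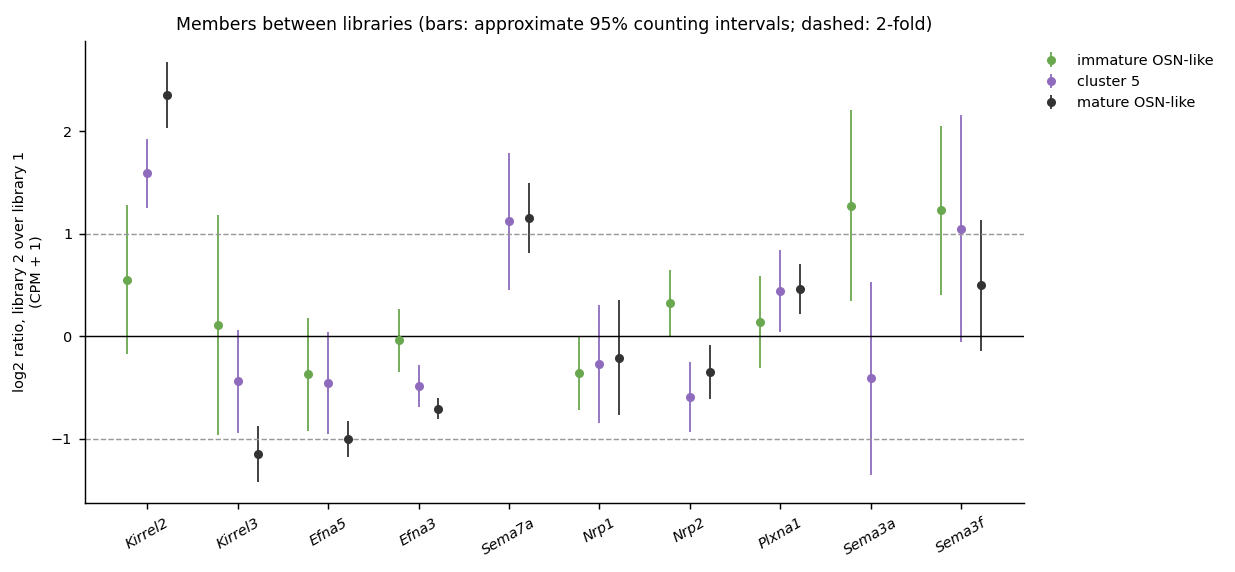
Log2 ratio of library 2 over library 1 (CPM + 1, vertical axis) of each member (horizontal axis) in immature OSN-like cells, cluster 5 and mature OSN-like cells; points are ratios of summed levels, bars approximate 95% counting intervals, dashed lines mark 2-fold, and members under 10 CPM in both libraries are left out. Kirrel2 reaches 2.36 and Sema7a 1.16 in mature cells, while Kirrel3 reaches -1.15.

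Levels of the same genes also differed among mature cells of a single library, in step with S100a5. In library 2, mature cells with at most 5 S100a5 UMIs of 2000 (161 cells, the lower tertile) were set against those with at least 27 (159 cells, the upper tertile). Kirrel2 was at 37.3 CPM (19.3 to 65.1) in the lower and 425 CPM (356 to 503) in the upper tertile, and Sema7a at 46.6 (26.1 to 76.8) and 126 CPM (89.9 to 171). Kirrel3 was at 130 (94.0 to 176) and 25.2 CPM (10.9 to 49.6), Efna5 at 286 (230 to 350.4) and 72.3 CPM (45.9 to 108), and Efna3 at 714 and 358 CPM. For each of these 5 genes the difference had the direction of that between the libraries, and the intervals of the tertiles did not overlap. Markers of stage and zone moved as well: Gap43 was at 121 and 37.7 CPM and Nqo1, a gene of the dorsal zone, at 326 and 170 CPM, and their part in the differences was not tested. Omp was at 5575 and 5969 CPM.

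In library 1, 305 of 450 thinned mature cells held no S100a5 UMI, so they were set against the 145 cells with at least 1. Kirrel2 was at 14.8 (6.75 to 28.01) and 75.9 CPM (47.5 to 115), Kirrel3 at 185 (153 to 223) and 62.1 CPM (36.8 to 98.1), and Efna5 at 434 (384 to 490.0) and 214 CPM (164 to 274). These 3 genes thus had the same directions as in library 2. Efna3 also did, at 921 (847 to 1001) and 734 CPM (639 to 840), with a log2 ratio of -0.33 against -0.99 in library 2. Sema7a did not: it was at 49.2 (33.2 to 70.2) and 24.1 CPM (9.71 to 49.7), from 30 and 7 UMIs, with overlapping intervals. Nrp2 was at 73.8 (53.8 to 98.7) and 166 CPM (122 to 219) in library 1, against 87.0 and 66.0 CPM in library 2. Nqo1 was at 246 and 37.9 CPM across the same split of library 1. Ncam2, a gene of the ventral zones, was at 65.6 and 134 CPM there, against 71.4 and 72.3 CPM in library 2. Zone thus moved with the split of library 1, and its part was not tested.

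Bins of equal S100a5 level, chosen after seeing the data, allowed the libraries to be set side by side. Mature cells with no S100a5 UMI held Kirrel2 at 14.8 CPM in library 1 and 20.8 CPM (5.68 to 53.3) in library 2 (96 cells), and those with 40 or more at 714 CPM (342 to 1314) in 7 cells of library 1 and 455 CPM (371 to 553) in 111 cells of library 2. The intervals of Kirrel2 overlapped between the libraries in all 5 bins, and library 2 had the higher value in 4 of them, such as 254 CPM (193 to 330.0) against 87.0 CPM (23.7 to 223) at 16 to 39 UMIs. In cells with no S100a5 UMI, Kirrel3 was at 185 and 104 CPM (63.6 to 161), Efna5 at 434 and 297 CPM (225 to 385) and Efna3 at 921 (847 to 1001) and 745 CPM (628 to 877). Gap43 was at 57.4 and 156 CPM in those cells, the higher value in library 2. Cluster 5 gave a like picture for Kirrel2: in library 2 it was at 128 CPM (82.5 to 188) in 98 cells with no S100a5 UMI and at 705 CPM (558 to 879) in 56 cells with 40 or more. In mature cells, Sema7a was at 0 UMIs in the 30 cells of library 1 with 16 or more S100a5 UMIs, and at 143 and 131 CPM in the 2 highest bins of library 2.

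**Figure D3:**
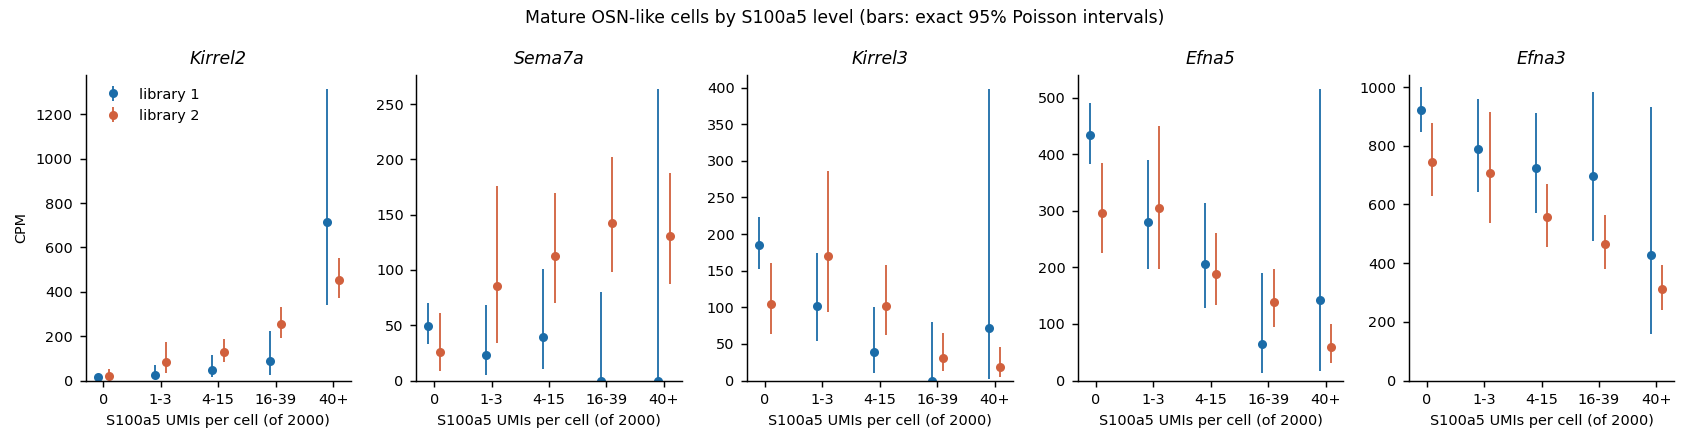
Levels of 5 members (CPM, vertical axis from 0, scaled per gene) in mature OSN-like cells grouped by S100a5 UMIs per cell thinned to 2000 UMIs (horizontal axis), with library 1 in blue and library 2 in orange and exact 95% Poisson intervals as bars. Kirrel2 stands at 455 CPM in the highest bin of library 2 and at 20.8 CPM in the lowest, and Efna5 falls from 297 to 58.6 CPM.

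Members were also counted together in single mature cells. In library 2, 9 of 458 thinned cells held UMIs of both Kirrel2 and Kirrel3, against 17.1 from the product of the single shares, and in library 1 there were 4 of 450 against 5.89. Kirrel2 and Efna5 occurred together in 21 cells against 34.7 in library 2 and in 8 against 11.8 in library 1. Kirrel3 and Efna5 occurred together more often than the product, in 21 cells against 17.1 and in 59 against 49.9. Kirrel2 and Sema7a were found together in 29 cells of library 2 against 20.1, and in 1 cell of library 1 against 1.83. Of these pairs, the exact binomial interval of the joint share left out the product for Kirrel2 with Kirrel3 and with Efna5 in library 2, and held it in the other cases. The product came from the same cells, whose own error the interval leaves out. Cells of 1 library are not replicates, so these intervals are descriptions and not tests. These counts are of cells with a detected UMI at 2000 UMIs and do not give the share of cells that express a gene. With UMIs as deposited, the ratio of joint cells to the product for Kirrel2 and Sema7a in library 1 went from 0.545 to 1.26. That pair thus has no settled direction in library 1, while each other ratio kept its direction. In library 2 it went from 0.528 to 0.682 for Kirrel2 with Kirrel3, and from 0.606 to 0.825 for Kirrel2 with Efna5.

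A neighbour of Kirrel2 on the chromosome, named for its ratio between libraries, was likewise higher in library 2. Nphs1, which encodes nephrin, an adhesion molecule known to bind Kirrel proteins in the kidney filter (ENSMUSG00000006649, chromosome 7, 30458315 to 30487223, plus strand), starts 625 bases from the start of Kirrel2 and runs the opposite way. Of the 19 eligible genes in the list of axon adhesion molecules it had the largest ratio between libraries in mature cells, with 3.36 CPM (1.45 to 6.62, 8 UMIs) in library 1 and 26.0 CPM (19.7 to 33.6, 58 UMIs) in library 2, a log2 ratio of 2.63. It was at 9.44 CPM (7 UMIs, all in 3 cells) and 31.3 CPM (23.1 to 41.5) in cluster 5, and at 1.17 and 7.19 CPM in immature OSN-like cells. In library 2, mature cells of the lower S100a5 tertile held 0 Nphs1 UMIs (up to 11.5 CPM) and those of the upper tertile 19, or 59.7 CPM (36.0 to 93.3). In library 1, cells without S100a5 UMIs held 1 Nphs1 UMI, or 1.64 CPM (0.0415 to 9.13). Those with S100a5 UMIs held 5, or 17.2 CPM (5.60 to 40.2), and these intervals overlapped. The sequence between the genes is shown because this start region lies beside both. The 75 bases directly upstream of the annotated Kirrel2 start (chr7:30457691-30457765, minus strand, 5′ to 3′, RefSeq on GRCm38, which is mm10) read:

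Kirrel2 upstream: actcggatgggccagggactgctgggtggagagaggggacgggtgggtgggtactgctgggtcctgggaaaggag

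RefSeq start regions were at hand for 7 of the 10 members. The 250 bases before each of these starts were searched on both strands for the cAMP response element TGACGTCA, its 5-base core TGACG, the Olf/Ebf-type motif CCCNNGGG and the homeodomain motif TAATTA. None of these letters was found in the 7 windows or in that of Nphs1. Of 32841 windows of the same length, 1.55%, 17.8%, 11.8% and 4.84% held them, and with 8 windows a count of 0 is not set apart from these shares. The GC box GGGCGG was searched as well. Kirrel2 and Nrp1 held 1, Sema7a 2, Efna3 3, Efna5 4 and Nrp2 5, while Sema3a and Nphs1 held 0. Of all windows, 32.7% held a GC box. The RefSeq starts of Sema3a, Nphs1 and Nrp1 lie 271370, 1743 and 469 bases from the gene starts given here, so these 3 windows are not the bases before those starts. Those of Kirrel2, Nrp2 and Efna3 lie 175, 32 and 26 bases inside the genes. Of their 250 bases, only 75, 218 and 224 lie before the gene starts, so most of the Kirrel2 window is inside the gene.

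Levels were next read by expressed receptor. A receptor was assigned where it took 3 or more UMIs and at least 2 of every 3 receptor UMIs of a cell, which gave 427 and 453 mature cells with 436 receptors, 129 of them seen in both libraries. Pairs of cells with the same receptor, 1 from each library, numbered 485, and each gene's log level was correlated over these pairs after centring per library. Pearson's r was 0.302 for Kirrel3, 0.262 for Nrp2, 0.244 for Plxna1 and 0.205 for Efna3. It was 0.176 for both Efna5 and Kirrel2, 0.0969 for Nrp1, 0.0314 for Sema7a, -0.0117 for Sema3a and -0.0302 for Sema3f. The median over 6160 genes was 0.00646, and 1.04% of them reached 0.2; S100a5 had 0.368 and Calb2 0.466. Over 25982 pairs of cells with different receptors of the same zone, Nrp2 had r of 0.0978 and each other member under 0.03. Zone was called here from UMIs of the dorsal genes Nqo1 or Acsm4, or of the ventral gene Ncam2. Cells with none of these, or with both kinds, were left out of the different-receptor pairs only. Ncam2 itself had r of only 0.0996 over same-receptor pairs, so its UMIs mark the zone of a cell loosely.

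These correlations are descriptions: all pairs share the 2 libraries, and a cell can enter several pairs. After thinning each cell to 2000 UMIs (470 pairs), r was lower for Kirrel3 (0.138), Nrp2 (0.145), Efna3 (0.117), Efna5 (0.109), Kirrel2 (0.106) and Plxna1 (0.0794), and higher for Nrp1 (0.115) and Sema7a (0.0788). It remained under 0.01 for Sema3a and Sema3f. Omp, which is expressed by all mature OSNs, had 0.181 before and 0.0489 after thinning.

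**Figure D4:**
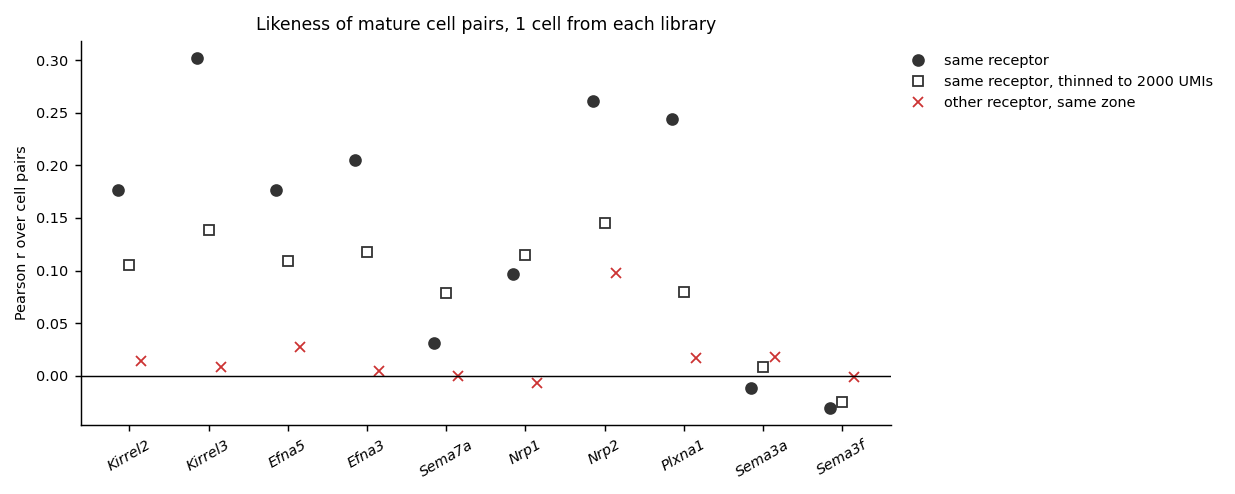
Pearson's r (vertical axis) of each member's log level (horizontal axis) over pairs of mature cells, 1 from each library: 485 pairs with the same receptor (filled circles), 470 such pairs after thinning to 2000 UMIs (open squares) and 25982 pairs with different receptors of the same zone (crosses). Kirrel3 has 0.302 with the same receptor and 0.138 after thinning.

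Of the receptors, 36 had at least 5 assigned mature cells and none more than 10. Across them Kirrel2 ranged from 0 to 331 CPM with a median of 52.4, Kirrel3 from 0 to 407 with a median of 96.0, Efna5 from 0 to 487 and Efna3 from 190 to 1200 CPM. Kirrel2 was highest with Olfr1260 (10 cells), at 331 CPM (189 to 537) from 16 UMIs in 7 cells, where Kirrel3 had 0 UMIs (up to 76.3 CPM). It was at 267 CPM in the 6 cells of library 1 and 479 CPM in the 4 of library 2 with this receptor, and S100a5 was at 21440 CPM. Next for Kirrel2 were Olfr1368 at 285 and Olfr398 at 203 CPM, each from 6 UMIs, and for Olfr398 all of them lay in 1 cell. All 6 UMIs of each came from library 2, where Olfr1368 had 4 cells and Olfr398 had 3, while the 1 and 2 cells of library 1 had none. These levels are pooled over libraries that differ in Kirrel2, so the order also follows each receptor's share of cells from library 2. Olfr776, named after its values were seen, was at 557 CPM in 2 cells of library 2, with no UMI in 4 cells of library 1. Kirrel2 had no UMI with 12 of the 36 receptors, among them Olfr295, Olfr686 and Olfr727. For these 3 the count of 0 allows up to 117, 159 and 195 CPM, above the median of 52.4, so they are not shown to be low.

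Kirrel3 was highest with Olfr55 (6 cells), at 407 CPM (203 to 727) from 11 UMIs in 5 cells, and with Olfr1428 and Olfr1226, at 331 and 330 CPM. For Olfr55, 10 of the UMIs came from 5 cells of library 1 and 1 from a cell of library 2, and for Olfr1428 the level was 480.5 CPM in library 1 and 104 CPM in library 2. With Olfr55, S100a5 was at 36.9 CPM and Kirrel2 had 1 UMI. With Olfr1226 the level was 328 CPM in 3 cells of library 1 and 331 CPM in 3 of library 2. Kirrel3 had no UMI with 8 receptors, among them Olfr295 (6 cells), Olfr720 (7 cells) and Olfr800 (5 cells), and Olfr295 cells held neither Kirrel gene. For these 3 receptors the count of 0 allows up to 117 CPM or more. The intervals of the 3 receptors highest for Kirrel3 overlapped each other.

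Mean levels of the 32 receptors with at least 2 cells in each library were also compared between the libraries. Pearson's r was 0.537 for Nrp2, 0.524 for Kirrel3, 0.438 for Plxna1, 0.346 for Efna5 and 0.332 for Efna3, then 0.315 for Nrp1, 0.0807 for Kirrel2, -0.0887 for Sema3f and -0.117 for Sema7a. S100a5 had 0.310.

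Over receptors with at least 2 cells in a library (86 in library 1 and 99 in library 2), mean levels of the genes were related in pairs, as descriptions. Kirrel2 and S100a5 had r of 0.478 in library 1 and 0.583 in library 2, and Kirrel2 and Kirrel3 -0.278 and -0.327. Efna5 had -0.440 and -0.555 with S100a5, Efna3 -0.394 and -0.495, and the ephrins 0.428 and 0.382 with each other. Kirrel3 had 0.555 and 0.397 with Calb2. Sema7a had -0.0122 and 0.238 with S100a5, and Nrp2 0.454 and -0.0179, and whether the libraries differ in these relations was not tested. The 6 genes most like Kirrel2 or Kirrel3 in library 2 over 15 receptors (r from 0.812 to 0.872) had r from -0.171 to 0.202 over 20 receptors in library 1, and the 6 least like them (r from -0.842 to -0.729) had r from -0.508 to 0.164.

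Zones were read from 189 mature cells with UMIs of the dorsal genes Nqo1 or Acsm4 and none of Ncam2, and 284 with Ncam2, an adhesion molecule of the ventral zones, and neither dorsal gene. Nrp2 was at 30.4 CPM (19.9 to 44.5) in dorsal-type and 126 CPM (109 to 145) in ventral-type cells, a log2 ratio of 2.02. The difference was present in each library, at 32.5 and 140 CPM in library 1 and 28.8 and 110 CPM in library 2. Sema3a and Sema3f ran opposite to Nrp2, at 17.5 (9.82 to 28.9) and 3.30 CPM (1.07 to 7.70) and at 32.7 (21.7 to 47.3) and 15.2 CPM (9.62 to 22.8), though from 15 and 5 and from 28 and 23 UMIs. In library 1 Sema3f was at 16.3 and 15.8 CPM, so its contrast came from library 2. Of all 9089 genes measured, 8.25% differed 2-fold or more, and 3 of the 10 members did. Read from the class of the assigned receptor, the log2 ratios were -1.29 for Sema3a and -0.39 for Sema3f, so Sema3f did not keep its call.

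Efna5 was at 346 CPM (308 to 388) in dorsal-type and 213 CPM (190 to 238) in ventral-type cells, and Plxna1 at 159 (133 to 188) and 102 CPM (86.2 to 119). Kirrel2 had a log2 ratio of 1.78 in library 1, from 6 and 48 UMIs, and of 0.32 in library 2; S100a5 was at 417 and 2109 CPM in the same cells of library 1 and at 14068 and 14415 CPM in those of library 2. When zone was instead read from the class of the assigned receptor (68 cells with symbols in the class I range, known to be mostly dorsal, and 812 others), Nrp2 was at 15.3 and 111 CPM and Efna5 at 370 and 242 CPM. Nqo1 was at 967 and 124 CPM in these groups, but the 5 cells each with Olfr571 and Olfr686, in the class I range, held no Nqo1 UMI (up to 137 and 159 CPM). The ratio of Kirrel3 changed from -0.24 to 0.30 and that of Sema7a from -0.15 to 0.22, so neither kept its sign. The 2 splits are unlike, since the 812 others still held Nqo1 and are not all ventral. No direction by zone is therefore given for these genes.

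**Figure D5:**
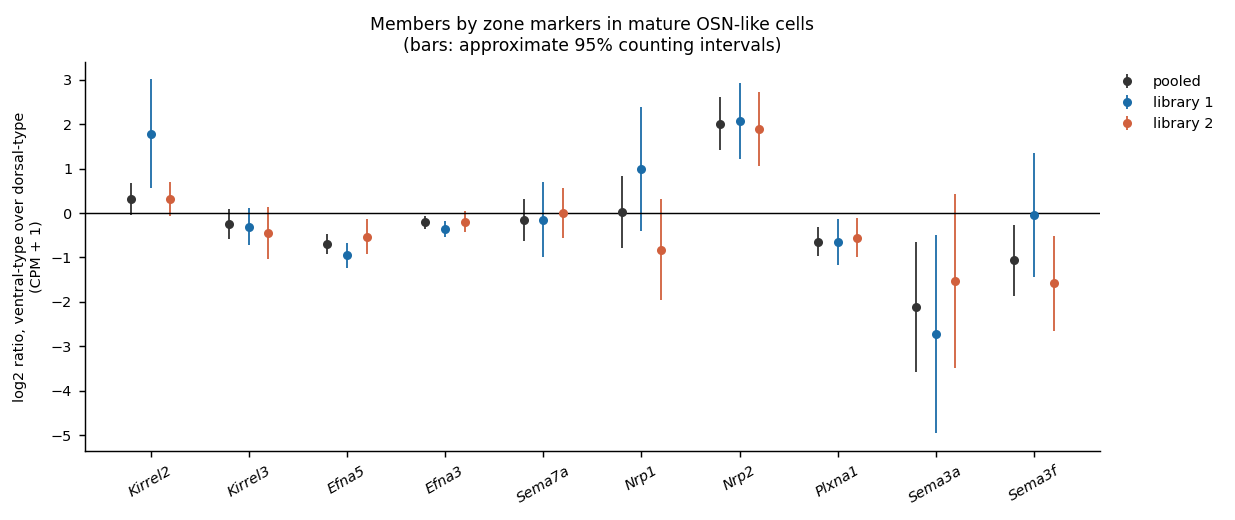
Log2 ratio of ventral-type over dorsal-type mature OSN-like cells (CPM + 1, vertical axis) of each member (horizontal axis) with both libraries pooled (black), in library 1 (blue) and in library 2 (orange); points are ratios of summed levels and bars approximate 95% counting intervals. Nrp2 has 2.02 pooled and lies above 1.8 in each library.

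Other genes of these pathways were counted in the same way. Of 20 ephrins and Eph receptors (the members left out), 5 were measured in mature cells, with 1 higher and 1 lower by 2-fold or more, beside 2.86% and 2.1% of all genes. Of 27 semaphorin and plexin genes 14 were measured and none was past 2-fold, of 29 axon adhesion molecules 19 were measured and 1 was higher (Nphs1), and of 22 Robo, Slit, netrin and other guidance genes 6 were measured and 1 was lower. The median log2 ratios were 0.17, 0.14, 0.01 and 0.02, beside -0.01 for all genes. With at least 50 CPM required, no gene of these 4 lists was past 2-fold. Epha7, a receptor of ephrin-A proteins, was at 10.9 (7.14 to 16.01) and 26.0 CPM (19.7 to 33.6), and Epha5, another, at 254 (234 to 275) and 286 CPM (264 to 309). Sema6a, a membrane-bound semaphorin, was at 46.7 and 76.7 CPM, Itgb1, an integrin subunit, at 16.8 and 24.2 CPM, and the teneurin gene Tenm4 at 27.7 and 50.2 CPM. The Slit receptors Robo2 and Robo1 were at 84.05 and 99.5 and at 60.9 and 54.7 CPM.

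Across maturation, in mature against immature cells with the libraries pooled, 2 of 13 measured semaphorin and plexin genes were 2-fold or more higher and 4 lower, and 6 of 21 axon adhesion genes higher and 2 lower. For the Eph list the counts were 2 and 1 of 5, and for the Robo, Slit and netrin list 1 and 2 of 8. The medians were -0.22, -0.10, -0.08 and 0.08, beside -0.13 for all genes, of which 12.9% were higher and 15.1% lower. With at least 50 CPM required, the semaphorin and plexin counts were the same, while those for adhesion genes were 3 and 0, for the Eph list 1 and 0, and for the Robo, Slit and netrin list 1 and 0.

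The genes whose levels over 16 named cell classes were most like those of a member are given as descriptions, with Pearson's r of log2(CPM + 1) among 8126 genes. For Kirrel2 these were 3632451O06Rik (0.968), Rd3 (0.963) and Rufy3 (0.959), and for Efna3 Aplp1 (0.975), Kcnh3 (0.966) and Cend1 (0.965). For Efna5 they were Wrb (0.934), Sdc2 and Mtss1l, for Sema7a Spock2 (0.924), C130074G19Rik and Pcsk7, and for Plxna1 Clstn2 (0.885), Pak3 and Galnt14. For Nrp2 they were Palm (0.885), Prune2 and Rtl8b. For Kirrel3 they were Acyp1 (0.877), Hspa4l and Pou2f3, the last a transcription factor of Trpm5 microvillous cells. For Nrp1 the likeness was lower, with Apold1 (0.809), Gdf15 and Cdkn1a, and Apold1 was at 0 CPM in mature cells.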

How the data were processed

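The deposited matrix holds a whole-number count of UMIs per gene and barcode, with reads processed by the authors with Cell Ranger 3.0.2 on mm10, per the submitters' processing notes. No source used here says whether depth was equalised on aggregation. Members and gene lists were chosen with earlier results of these data known. Cells had at least 1000 UMIs, 500 genes and at most 10% mitochondrial UMIs. Scrublet called 7 cells (0.0844%), so few that the call was not used and no doublet was removed. Per-cell counts were scaled to 10000 and logged, and 2000 variable genes, 30 components, 15 neighbours and Leiden resolution 1.0 (seed 0; scanpy 1.11.5, leidenalg 0.10.2) gave the clusters. A name needed at least 3 listed markers among the 50 leading genes and no tie. Depth was 27212821 and 49221001 UMIs over all barcodes. Intervals cover counting error only. Named genes were the members, the 2 genes per guidance list with the largest ratio between libraries in mature cells (20 CPM and 30 UMIs or more), the 3 genes per member most alike over classes, genes most and least alike over receptors, and the 3 receptors with the highest and lowest Kirrel2 and Kirrel3 levels, ties in symbol order. Gene positions are from GENCODE M21. Alternatives were other cell filters, doublet removal, clusterings, scalings, pseudocounts, receptor rules and zones.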

Additional observations from a re-analysis of the deposited data

How the results depend on the processing

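No paired analysis was possible because each side is a single library and no label ties a barcode suffix to a side. In mature cells Kirrel2 kept log2 ratios of 2.18 to 2.69, Kirrel3 of -1.30 to -0.97, Efna5 of -1.24 to -0.97, Efna3 of -0.83 to -0.58 and Sema7a of 0.98 to 1.26 over 12 alternatives. The count of members 2-fold or more lower, 2 as reported, was 1 with no cell filter, at Leiden resolution 0.6, with 5 CPM added, with median ratio scaling and with a mean over cells, and 0 at resolution 1.5. The count higher, 2 as reported, was 1 with stages taken from Omp and Gap43 UMIs. In immature cells the count higher, 2 as reported, was 0 with no cell filter, with at least 2500 UMIs, with at most 5% mitochondrial UMIs, at resolution 1.5 and with stages from Omp and Gap43 UMIs, and 1 with all variable genes clustered; the cause was not tested. No other count of members past 2-fold moved by over 1.5 times, and no value past 2-fold changed sign. Nrp1 between libraries in mature cells had the other sign in 3 of 12 alternatives. Depth limits Sema3a and Sema3f in mature cells and levels by single receptors.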
